A study of Saccharomyces cerevisiae with 11 samples.

Results

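The genes described here are 31 genes for subunits of the yeast proteasome and RPN4, the gene for the transcription factor that drives their expression. They were chosen by name, and all 32 were among the 5415 genes tested. The proteasome is the protease that degrades proteins tagged with ubiquitin. Its 20S core is a barrel in which outer alpha rings enclose inner beta rings that hold the proteolytic sites, and its 19S regulatory particle, made of a base and a lid, binds, unfolds and deubiquitylates the substrates. Rpn4 binds the promoters of the subunit genes and is itself degraded by the proteasome, so that its protein accumulates and subunit transcription increases when proteolysis is impaired.

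RNA was measured on 11 one-colour Affymetrix Yeast Genome 2.0 arrays of 5 strains of Saccharomyces cerevisiae, 2 arrays each of R11ΔS15, ΔS15, R11 and K11 and 3 arrays of WT. All strains were Mata with the markers hta1-1, hta2-1, ura3-52 and his3, and obtained their only histone H2A from HTA1 on a HIS3 CEN plasmid, so that WT is a plasmid strain as well. In R11 an extra arginine, and in K11 an extra lysine, stood at position 11 of the H2A tail, ΔS15 lacked serine 15, and R11ΔS15 combined the inserted arginine with the deletion. One entry of the labels gives a lysine for R11ΔS15, whereas its titles and its strain number give an arginine, which is followed here. Cultures in YPD at 30°C were diluted to an OD600 of 0.2 and collected at 0.8 for poly(A) RNA. The study speaks of repeated experiments, but the labels do not say whether the arrays of a strain came from separate cultures, so that the p-values measure only the spread between these arrays, which may be technical in part.

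The values are MAS5 signals, intensities on a linear scale that the facility had scaled to a common trimmed mean. Each of the 32 genes had 1 probe set, none had probes shared with another transcript, and their signals ran from 1352 to 6201, against a background of 5.09 set by probe sets for fission yeast. Signals of different probe sets cannot be compared, and levels are therefore compared only between arrays for the same gene. The MATa marker STE2 had signals of 3968 to 4606 on the 11 arrays, and the MATalpha marker STE3, which should be silent in these cells, had 130.0 to 224.4. The fission yeast value of 5.09 may therefore understate the floor for budding yeast probe sets. All signals of the 32 genes were above those of STE3. None of the 32 genes lies on chromosome IX.

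Some arrays stood apart in ways that the labels do not record. To see this, each signal was divided by the median of the same gene over the 11 arrays. Across the 188 tested chromosome IX genes, the median ratio reached 1.67 on ΔS15 replicate 1 and R11ΔS15 replicate 2. On the other 9 arrays this median ratio lay between 0.967 and 1. Separately, 18 probe sets for spike-in controls, which are added at a fixed amount to each hybridization, divided the arrays into a bright set with mean log2 signals of 10.65 to 10.85 and a dim set with 10.50 to 10.54. The dim set held all R11ΔS15 and ΔS15 arrays and WT replicate 3, and the bright set held all R11 and K11 arrays and WT replicates 1 and 2. The 3′ to 5′ signal ratio of ACT1 was 1.04 to 1.11 in the dim set and 1.26 to 1.35 in the bright set. Only WT had arrays in both sets.

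To determine whether the changes in the H2A tail altered proteasome gene expression, each mutant was compared with WT by limma on log2 signals over all tested genes. None of the 32 genes passed the threshold of an adjusted p of 0.05 in any mutant, and the same was true of all 5415 genes (0% called in each comparison). Without WT replicate 3, 128 genes passed in R11ΔS15 and 38 in ΔS15, and 0 of the 32 genes were among them. At an unadjusted p under 0.05, limma counted 2 of the 32 genes in R11ΔS15, against 10% of all genes, and 0 of the 32 in ΔS15, R11 and K11, against 5.28%, 0.351% and 0.425% of all genes. The 2 genes were RPN7 and RPT1. In bulk cultures a change in every cell cannot be told apart from one in some of the cells. The median log2 fold change of the 31 subunit genes was 0.006 in R11ΔS15, 0.038 in ΔS15, 0.006 in R11 and -0.008 in K11, beside medians over all tested genes of 0.002, 0.003, -0.018 and -0.013. Subunit genes had a median standard error of 0.1 in R11ΔS15, below the 0.16 of all genes.

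**Figure D1:**
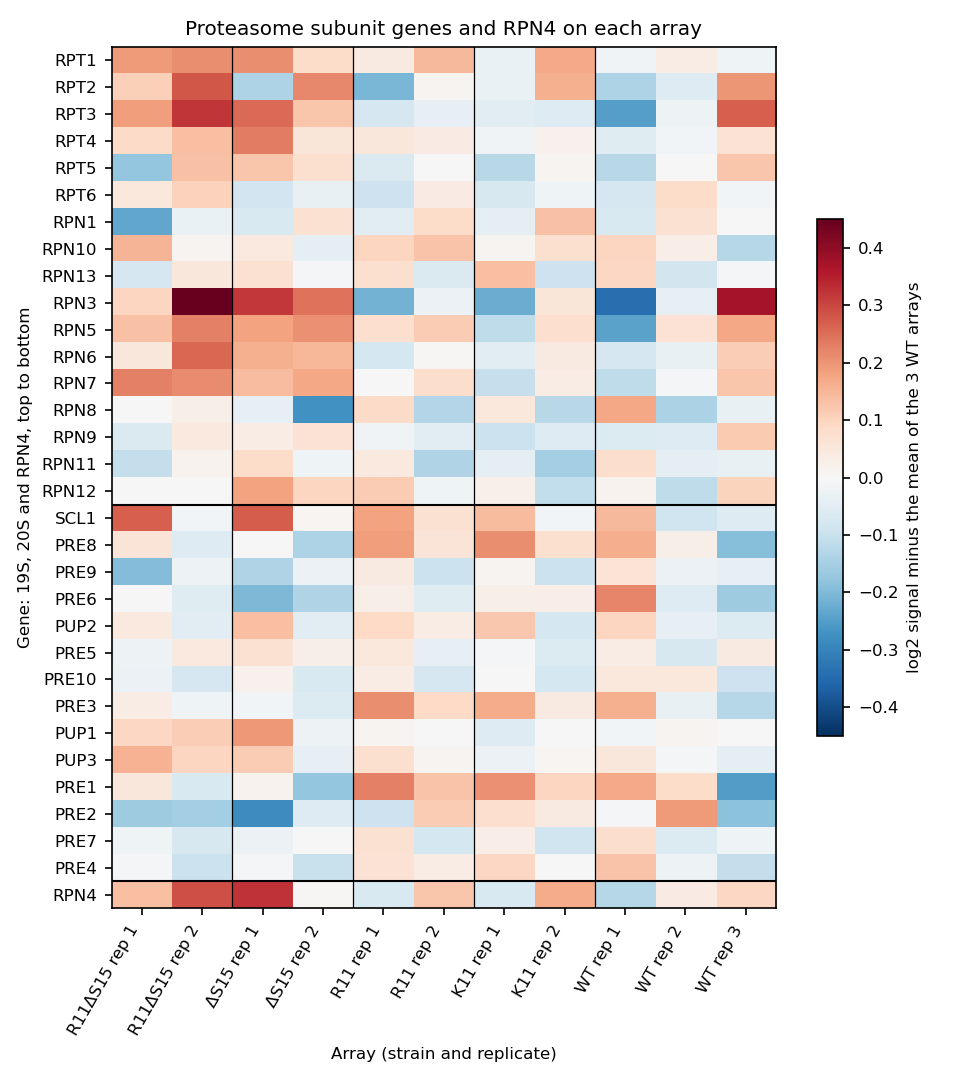
Log2 signal of each of the 32 genes on each of the 11 arrays, minus the mean of the 3 WT arrays for that gene. Rows are genes in the order of the 19S particle, the 20S core and RPN4, columns are arrays, and red is above and blue below the WT mean. WT replicate 3 had 19S and 20S medians of 0.101 and -0.076. Those of ΔS15 replicate 2 were 0.072 and -0.054, and those of R11ΔS15 replicate 2 were 0.133 and -0.051. On ΔS15 replicate 1 (0.125 and 0.01) and R11ΔS15 replicate 1 (0.052 and 0.018) the 20S median lay above 0.

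RPN4 (YDL020C, chromosome IV) had signals of 2912 and 3245 in R11ΔS15, 3323 and 2661 in ΔS15, 2532 and 2891 in R11, 2529 and 2978 in K11, and 2428, 2721 and 2827 in WT. Both R11ΔS15 arrays were above the 3 WT arrays, whereas each of the other mutants overlapped WT. The means were 3078 ± 235 in R11ΔS15, 2992 ± 468 in ΔS15, 2711 ± 254 in R11 and 2753 ± 318 in K11 (SD, n = 2 each), and 2659 ± 207 in WT (SD, n = 3). Ordered by mean, R11ΔS15 was followed by ΔS15, K11, R11 and WT, and neighbours in this order differed by less than the spread between their arrays. The log2 fold change against WT was 0.21 in R11ΔS15 (standard error 0.12, 95% interval -0.06 to 0.48, limma adjusted p = 0.583) and 0.17 in ΔS15 (standard error 0.12, 95% interval -0.11 to 0.44, adjusted p = 0.813). Without ΔS15 replicate 1 the value in ΔS15 was 0.004, and without R11ΔS15 replicate 2 that in R11ΔS15 was 0.13. In R11 it was 0.028 and in K11 0.049, each with an adjusted p of 1.

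**Figure D2:**
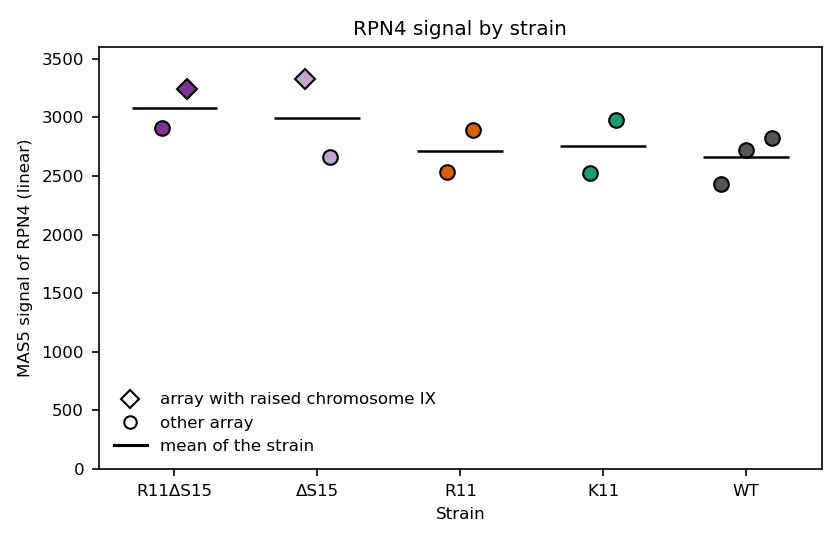
MAS5 signal of RPN4 on a linear scale from 0 by strain, with 1 point per array and a line at the mean of the strain (n = 2, WT n = 3). Diamonds mark the arrays with raised chromosome IX genes, which had the highest RPN4 signals of the 11 arrays, 3323 in ΔS15 and 3245 in R11ΔS15.

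Within the 19S particle, the lid subunits RPN3 and RPN7 and the base ATPase RPT3 had the largest differences in R11ΔS15. RPN3 (YER021W, chromosome V) had signals of 1830 and 2330 in R11ΔS15, 2133 and 2027 in ΔS15, 1477 and 1678 in R11, 1465 and 1773 in K11, and 1352, 1666 and 2217 in WT. The 3 WT arrays of this gene spanned 1.64-fold, the widest WT range among the 32 genes, and every mutant overlapped it. Its log2 fold change was 0.27 in R11ΔS15 and 0.28 in ΔS15, each with a standard error of 0.19, and the adjusted p from limma was 0.64 and 0.799. RPT3 (YDR394W, chromosome IV), 1 of the 6 ATPases that unfold substrates, had 2280 and 2506 in R11ΔS15, 2390 and 2184 in ΔS15, 1903 and 1951 in R11, 1934 and 1923 in K11, and 1688, 1973 and 2413 in WT. Again WT replicate 3 reached the level of the R11ΔS15 and ΔS15 arrays, whereas WT replicate 1 was the lowest of the 11 arrays. The log2 fold change was 0.26 in R11ΔS15 (standard error 0.13, adjusted p = 0.548) and 0.19 in ΔS15 (standard error 0.13, adjusted p = 0.806).

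RPN7 (YPR108W, chromosome XVI), a structural subunit of the lid, had 3398 and 3369 in R11ΔS15, 3203 and 3276 in ΔS15, 2910 and 3069 in R11, 2707 and 2972 in K11, and 2682, 2886 and 3171 in WT. The R11ΔS15 and ΔS15 arrays all lay above the 3 WT arrays. The log2 fold change in R11ΔS15 was 0.22 (standard error 0.092, 95% interval 0.019 to 0.42), with an unadjusted p of 0.0346 and an adjusted p of 0.471, the smallest of any of the 32 genes in this comparison. RPT1 (YKL145W, chromosome XI), another ATPase of the base, had 2974 and 3010 in R11ΔS15, 3010 and 2755 in ΔS15, 2681 and 2883 in R11, 2550 and 2935 in K11, and 2576, 2667 and 2572 in WT. Its WT arrays spanned only 1.04-fold, and R11ΔS15, ΔS15 and R11 were all above them. The log2 fold change of RPT1 was 0.20 in R11ΔS15 (unadjusted p = 0.0496, adjusted p = 0.496), 0.14 in ΔS15 and 0.094 in R11. RPN5, also of the lid, completed the 3 largest subunit differences in ΔS15, with 2786 and 2839 there against 2082, 2575 and 2774 in WT (log2 fold change 0.19, standard error 0.12, adjusted p = 0.799).

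Of the 17 genes of the 19S particle, 12 had a positive log2 fold change in R11ΔS15 and 14 in ΔS15, beside 50.4% and 50.8% of all tested genes. The medians of the 19S genes were 0.082 and 0.099, and in R11 and K11 they were -0.022 and -0.035. The 6 ATPase genes had a median of 0.15 in R11ΔS15 and 0.12 in ΔS15, and the 8 lid genes 0.085 and 0.15. The lid was not uniform. RPN8, the partner of the deubiquitylase Rpn11, had a log2 fold change of 0.014 in R11ΔS15 and -0.16 in ΔS15, where its signals were 2337 and 1985 against 2707, 2172 and 2346 in WT. The 3 ubiquitin receptor genes of the base ran from -0.13 for RPN1 to 0.082 for RPN10 in R11ΔS15, and from -0.001 to 0.029 in ΔS15.

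In the 20S core 5 of 14 genes were higher than WT in R11ΔS15 and 5 in ΔS15, beside 50.4% and 50.8% of all tested genes. The median log2 fold change of the core was -0.006 in R11ΔS15 and -0.031 in ΔS15, and 0.027 in R11 and 0.025 in K11. PRE2 (YPR103W, chromosome XVI), which carries the chymotrypsin-like site, had 3168 and 3183 in R11ΔS15, 2906 and 3397 in ΔS15, 3316 and 3831 in R11, 3727 and 3639 in K11, and 3525, 4040 and 3111 in WT. Its log2 fold change, -0.16 in R11ΔS15 and -0.17 in ΔS15, was the lowest of the 32 genes in each, with a standard error of 0.12, and the arrays of both strains overlapped WT. The other genes with active sites were PRE3, at 0.006 in R11ΔS15 and -0.036 in ΔS15, and PUP1. PUP1, for the trypsin-like subunit, had 2653 and 2689 in R11ΔS15, 2851 and 2451 in ΔS15, 2512 and 2486 in R11, 2390 and 2487 in K11, and 2467, 2510 and 2492 in WT. Its WT arrays spanned 1.02-fold, the narrowest range of the 32 genes. In R11 and K11 the largest subunit differences were those of PRE1, a beta ring gene, at 0.18 and 0.15, followed by PRE3 and SCL1 in R11 and PRE8 and PRE3 in K11, all with an adjusted p of 1.

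**Figure D3:**
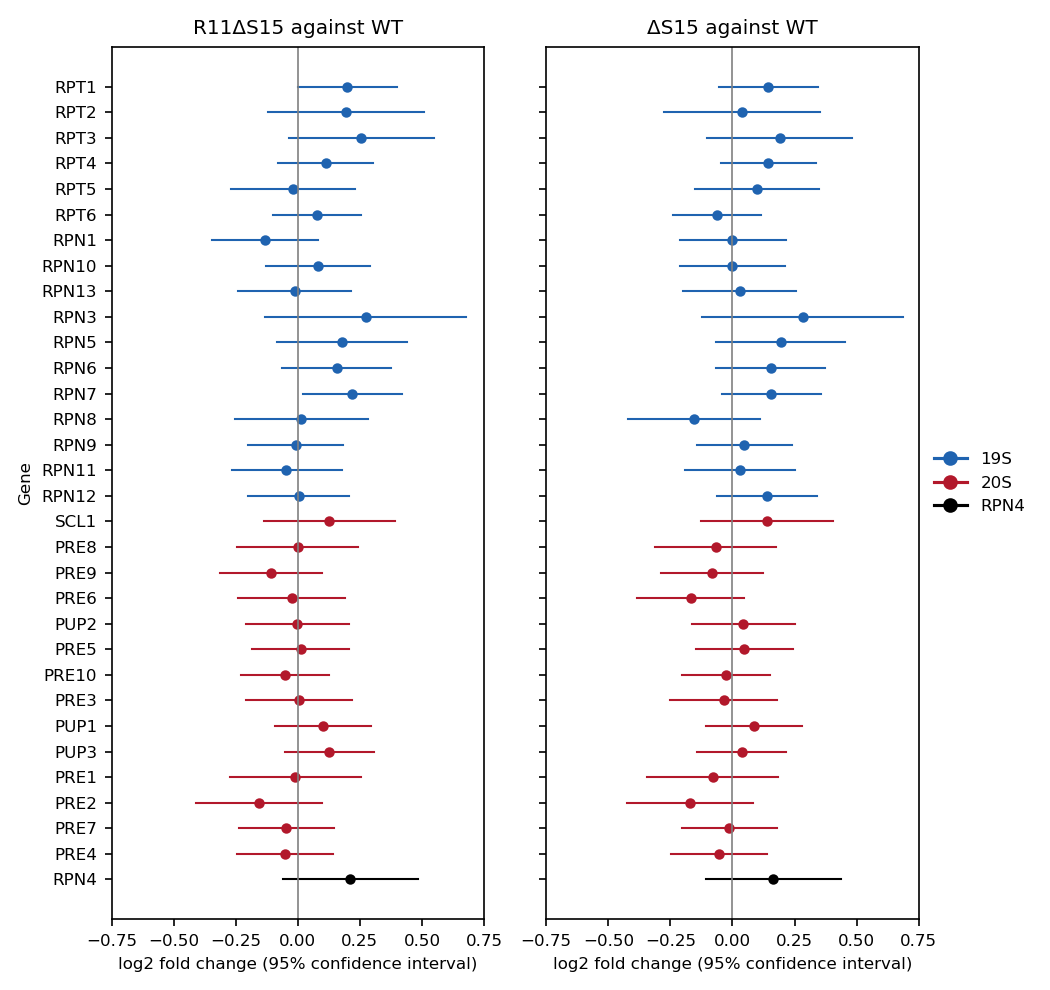
Log2 fold change of each of the 32 genes against WT in R11ΔS15 (left) and ΔS15 (right), with 95% confidence intervals from limma (n = 2 against 3 arrays). Blue is the 19S particle, red the 20S core and black RPN4; the largest values are those of RPN3, 0.27 and 0.28, and only the intervals of RPN7 and, barely, RPT1 (unadjusted p = 0.0496) in R11ΔS15 lie above 0 at both ends.

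Counting genes whose mutant arrays all lay outside the WT range gave 6 of 32 above WT in R11ΔS15 (RPT1, RPT4, RPN7, PUP1, PUP3 and RPN4), where 10.6% of all genes were above and 12.6% below. In ΔS15 there were 4 of 32 (RPT1, RPN5, RPN6 and RPN7), where 7.9% of all genes were above and 7.79% below. R11 had 1 (RPT1), with 3.62% above and 4.71% below over all genes, and K11 had 0, with 4.6% above and 4.17% below. None of the 32 genes lay below WT in this sense in any mutant. The 4 comparisons used the same WT arrays and are not independent of each other.

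Direct comparisons were made between mutants as well. For R11ΔS15 against ΔS15 the median over the 31 subunit genes was 0.001, the values ran from -0.14 for RPN12 to 0.17 for RPN8, and RPN4 differed by 0.048 (95% interval -0.25 to 0.35). For R11 against K11 the median was 0.023, the values ran from -0.16 for RPT2 to 0.11 for RPN5, and RPN4 differed by -0.02. For the effect of R11 without serine 15 against its effect with serine 15, the median was -0.029, the values ran from -0.18 for RPN12 to 0.25 for RPT2, and the value of RPN4 was 0.02. This last comparison set the R11 arrays, all of the bright set, against WT arrays of both spike-in sets. By limma 0 of the 32 genes passed at an adjusted or at an unadjusted p under 0.05 in these 3 comparisons, whereas 23, 12 and 7 of all genes had an unadjusted p under 0.05.

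The values of the 19S and 20S genes also moved apart among the WT arrays themselves. Relative to the mean of the 3 WT arrays, the 19S median was -0.07, -0.022 and 0.10 in WT replicates 1, 2 and 3, and the 20S median was 0.088, -0.025 and -0.076. The strongest example was RPN3, at 0.56 on the log2 scale above the mean of WT replicates 1 and 2 in replicate 3, followed by RPT3 at 0.40. In the 20S core PRE1 differed by -0.38, PRE8 by -0.29 and PRE2 by -0.28 in the same direction of comparison. Over the 31 subunit genes, 12 were higher and 19 lower in WT replicate 3, whereas 3335 of all 5415 tested genes were higher and 2080 lower.

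The 2 groups differ in gene length as annotated in the R64 assembly. The 20S genes are 597 to 867 bp long, with a median of 764.5 bp, and the 19S genes 471 to 2982 bp, with a median of 1290 bp. Across the 31 subunit genes, which are not independent replicates, the difference of WT replicate 3 from replicates 1 and 2 had a Spearman correlation with length of 0.637, beside 0.214 across all tested genes. Within the 17 genes of the 19S particle it was 0.472, and within the 14 of the 20S core, which differ little in length, -0.064. Genes of 1201 to 1800 bp had a median difference of 0.21 over all 1283 tested genes and of 0.19 over the 10 subunit genes among them. Genes of 601 to 900 bp had -0.03 over 861 genes and -0.09 over 15 subunit genes. Within the 19S particle, RPN10, at 807 bp, differed by -0.19, and the longest subunit gene, RPN1, by 0 at 2982 bp.

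**Figure D4:**
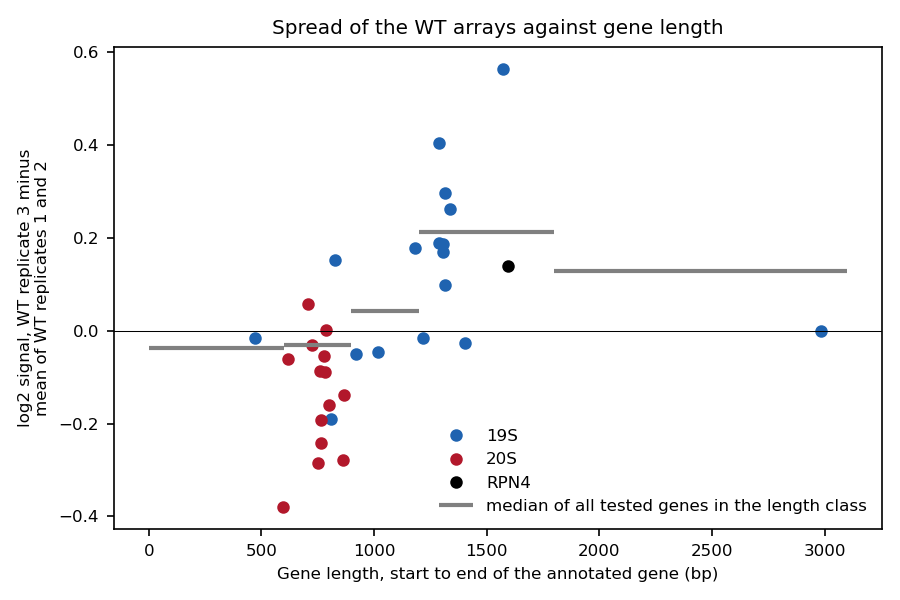
Log2 signal of each of the 32 genes in WT replicate 3 minus the mean of WT replicates 1 and 2, against gene length in bp. Blue is 19S, red 20S, black RPN4, and grey lines are the medians of all tested genes in 5 length classes, from -0.037 in the shortest class to 0.21 at 1201 to 1800 bp; most of the long 19S genes lie above 0 and most 20S genes below it.

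The same division was present in the comparisons of R11ΔS15 and ΔS15 with WT. Split at 1200 bp, a length chosen after the values were seen, the 11 longer 19S genes had medians of 0.18 in R11ΔS15 and 0.14 in ΔS15, and the 6 shorter ones -0.003 and 0.03. Over all tested genes above 1200 bp the medians were 0.018 and 0.03, and over those up to 1200 bp -0.011 and -0.023. The gap between long and short genes was thus smaller over all genes than within the 19S particle. Over the 11 arrays the median pairwise Pearson correlation was 0.58 among the longer 19S genes, 0.37 among the 20S genes and -0.46 between these 2 sets, whereas the 19S genes up to 1200 bp had a median correlation of 0.33 with the 20S genes. All pairs of tested genes had a median of 0.031. The gap between the 19S and the 20S median of an array correlated with the Spearman correlation between gene length and deviation from WT over all genes on that array, with a Pearson r of 0.589 over 11 arrays, 0.902 over the 6 of the bright set and 0.774 over the 5 of the dim set. In the bright set the length correlation was -0.448, -0.399 and -0.259 on replicate 1 of WT, R11 and K11. On replicate 2 of these strains it was 0.262, 0.322 and 0.382. The bright-set r of 0.902 thus largely compares replicate 1 with replicate 2 arrays. With the ACT1 3′ to 5′ ratio the gap had an r of -0.73 over 11 arrays. That r was 0.527 within the bright and 0.259 within the dim set. The part of RNA quality in these values was not tested.

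Each mutant was also set only against the WT arrays of its own spike-in set. Against WT replicate 3 alone, the 19S median was -0.002 in R11ΔS15 and 0.02 in ΔS15, and the 20S median was 0.079 and 0.073. The order of the 19S and 20S medians was thus turned round. The median of all tested genes was -0.048 in R11ΔS15 and -0.046 in ΔS15, below the 19S and the 20S medians. In R11ΔS15 18 of the 32 genes were above WT replicate 3 on both arrays and 3 below, while 23.3% of all genes were above and 41.8% below. In ΔS15 15 were above and 5 below, with 21.5% and 37.5% over all genes. Of the 14 genes of the 20S core, 11 were above in R11ΔS15 and 8 in ΔS15, and 0 were below in either. RPN3 then had a log2 fold change of -0.10 in R11ΔS15 and -0.093 in ΔS15, RPT3 of -0.014 and -0.079, and RPT1 kept 0.22 and 0.16. RPN7 fell to 0.093 and 0.031, from 0.22 and 0.16 against all WT arrays. RPN4 had 0.12 and 0.073. These values rest on a single WT array. Against WT replicates 1 and 2, R11 had 5 genes above on both arrays (RPT1, RPT4, RPN5, RPN7 and RPN9) and 1 below, with 10.2% and 8.61% over all genes, and K11 had 1 above and 1 below, with 12.5% and 9.12%. The 19S median was then 0.029 in R11 and 0.028 in K11, and the 20S median 0.014 and -0.022. Over all tested genes it was 0.007 and 0.009.

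On the arrays with raised chromosome IX genes, RPN4 had its highest signals, 3323 in ΔS15 replicate 1 and 3245 in R11ΔS15 replicate 2, while the highest of the other 9 arrays was 2978. These arrays were singled out by measured values and are not groups of the labels, so that no test was made. Within its strain, the array with raised chromosome IX exceeded the other array by 0.32 on the log2 scale in ΔS15 and by 0.16 in R11ΔS15. In both strains the difference was at least 0.156, the smaller of the 2 RPN4 values, for 76 of 5227 genes on other chromosomes (1.45%, RPN4 included). RPT1, RPT4, RPT5, RPN6 and PUP1 were also above all other 9 arrays on both, which made 6 of 32 genes above and 0 below, against 3.02% above and 8.59% below over the tested genes of other chromosomes. The margins were small: RPT5 had at least 2561 on these arrays and at most 2559 on the others, and RPT1 at least 3010 and at most 2974.

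In both strains, 12 of the 32 genes were higher on the array with raised chromosome IX than on the other array of the strain (37.5%) and 3 were lower (9.38%). Among tested genes of other chromosomes these shares were 10.3% and 30%. The 12 comprised 9 genes of the 19S particle, among them RPN3 with differences of 0.073 in ΔS15 and 0.35 in R11ΔS15 and RPT3 with 0.13 and 0.14, 2 of the 20S core and RPN4. Other members differed in direction between the strains. SCL1, of the alpha ring, was at 0.26 in ΔS15 and -0.28 in R11ΔS15, and RPT2 at -0.36 and 0.17. With quantile normalization 3 of the 6 genes remained above all other arrays (RPT4, PUP1 and RPN4), with each array centred on its median 7 genes were above them, 4 of them among the 6, and with centring on genes of other chromosomes 9, the 6 included. RPN4 was above them under every scaling tried.

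**Figure D5:**
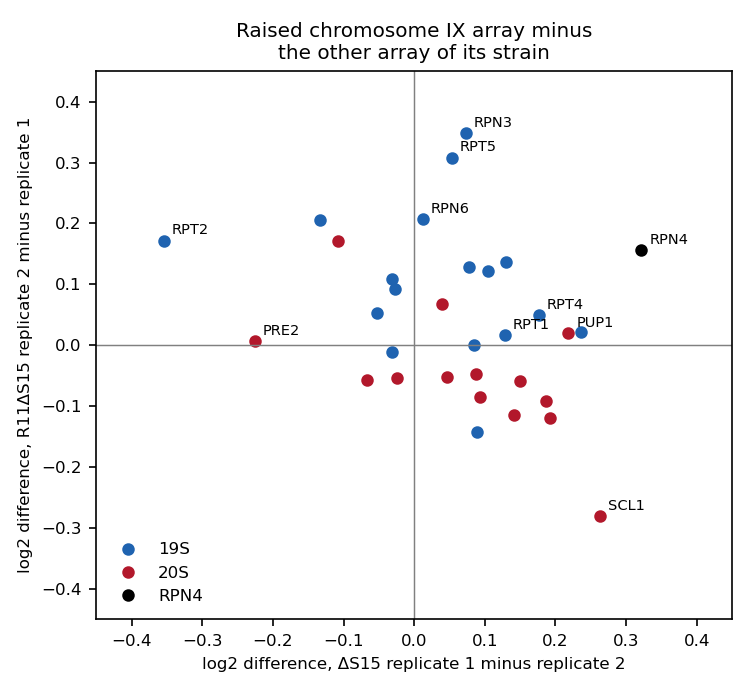
Log2 signal on the array with raised chromosome IX minus the other array of its strain, for ΔS15 (horizontal axis) and R11ΔS15 (vertical axis), with 1 point for each of the 32 genes. RPN4 (0.32 and 0.16) lies in the upper right, where both differences are above 0, while SCL1 (0.26 and -0.28) and RPT2 (-0.36 and 0.17) lie in opposite corners.

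Over the 11 arrays its log2 signal had a Pearson r of 0.807 with the 19S median and of -0.5 with the 20S median (Spearman 0.791 and -0.455). The r with the 19S median was 0.808 in the bright set, 0.757 in the dim set and 0.603 without the arrays with raised chromosome IX. With the 20S median it was -0.781 in the bright set but 0.423 in the dim set, where the Spearman correlation was 0.6 with the 19S as well as with the 20S median. RPN4, at 1596 bp, is also among the longer genes. In the bright set its signal followed the length trend of all genes with an r of 0.954, against -0.483 in the dim set. Relative to the WT mean, RPN4 was at -0.128, -0.068 and -0.069 on replicate 1 of WT, R11 and K11. On replicate 2 of these strains it was at 0.036, 0.124 and 0.167. The bright-set r of 0.954 thus largely compares replicate 1 with replicate 2 arrays. Single subunits with the highest r with RPN4 were RPT1 at 0.85, RPT4 at 0.83 and PUP1 at 0.807. Like RPN4, these genes were above all other arrays on the arrays with raised chromosome IX. Their r without those arrays was not computed. These correlations describe arrays that share strains, and no p is given.

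Among other genes of the pathway, 0 of 38 passed the limma test in R11ΔS15 or ΔS15, and 2 had an unadjusted p under 0.05 in each, all in the ubiquitin and Cdc48 list, where 10% and 5.28% of all genes had such a p. That list of 18 genes had medians of 0.11 in R11ΔS15 and 0.14 in ΔS15, with 13 and 15 genes higher, beside 50.4% and 50.8% of all tested genes. The lists of pathway genes were not set against WT replicate 3 alone. UBI4, the polyubiquitin gene, had 3234 and 3275 in R11ΔS15, 4049 and 3996 in ΔS15, 2466 and 2172 in R11, 2439 and 2156 in K11, and 2166, 1883 and 3336 in WT. WT replicate 3 reached the level of R11ΔS15, but both ΔS15 arrays lay above all 3 WT arrays (log2 fold change 0.75, standard error 0.19). DDI1, for a shuttle protein that carries ubiquitylated substrates, had 638.6 and 604.4 in R11ΔS15 and 611.1 and 598.9 in ΔS15, against 470.8, 483.8 and 547.6 in WT. STS1, needed for the nuclear localization of proteasomes, had the second largest difference of the list in ΔS15, 0.38, and lies on chromosome IX. It had 2057 and 1314 in ΔS15, against 1243, 1217 and 1340 in WT. In ΔS15 only the array with raised chromosome IX was thus above WT.

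The 10 genes for assembly chaperones had medians of 0.095 in R11ΔS15 and 0.08 in ΔS15, led by NAS2 at 0.51 and 0.41. The next largest were RPN14, for a chaperone of the base, at 0.25 in R11ΔS15, and IRC25, for a chaperone of the alpha ring, at -0.21 in ΔS15. NAS2 lies on chromosome IX, as does RPN2, for a scaffold subunit of the base. RPN2 had 2539 and 3782 in R11ΔS15 and 4032 and 2375 in ΔS15, against 2596, 2606 and 2378 in WT, so that only the arrays with raised chromosome IX were above WT. SEM1, for the smallest lid subunit, had the lowest value of these genes in R11ΔS15, -0.41 (standard error 0.24), with 765 and 1213 there against 1579, 1167 and 1128 in WT. The 4 factors reported to act on the RPN4 promoter had medians of 0.04 in R11ΔS15 and 0.023 in ΔS15, and their largest values were those of YAP1, a factor of the oxidative stress response, at 0.22 and 0.17, and of HSF1, the heat shock factor, at 0.12 and 0.037.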

How the data were processed

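The authors deposited MAS5 signal intensity on a linear scale for 10928 probe sets, made by a core facility with the manufacturer's background correction and scaling; the software version is not given in the sources used here. The log2 of each signal entered limma 3.58.1 under R 4.3.3 (lmFit, eBayes with trend, 1 coefficient per strain, 11 arrays, 6 residual degrees of freedom), two-sided, with Benjamini-Hochberg adjustment over 5415 genes and a threshold of 0.05. A gene's probe set was its brightest, above the 95th percentile of 1746 fission yeast probe sets. Names, chromosomes and lengths came from the array annotation and the R64 gene table. Precision is limited by the number of arrays. On simulated data, 200 genes with known changes were used to test the fit. The 32 genes and the lists were chosen with earlier results of these data known. RPN4, the 3 subunit genes with the largest change and any gene past the test were named in each comparison, and for other lists the 2 largest changes; other named genes were chosen after their values were seen. Alternatives covered scaling, filters, variance model, spike-in set, replicate block and left-out arrays. Replicate numbers carry no batch in the labels, and arrays with the same number did not deviate together throughout. Figures were drawn with matplotlib 3.10.9.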

Additional observations from a re-analysis of the deposited data

How the results depend on the processing

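In R11ΔS15 against WT the median of the 31 subunit genes, 0.006, was -0.03 with centred arrays, 0.039 with array weights, 0.043 with a term for the spike-in sets and 0.044 without both arrays with raised chromosome IX (-0.011 to 0.075 leaving out single arrays). That term gave 19S medians of -0.002 in R11ΔS15, 0.02 in ΔS15 and 0.028 in K11, and 20S medians of 0.079 in R11ΔS15 and 0.073 in ΔS15. A replicate block, in which WT replicate 3 carries no weight, gave 343 genes past the limma test in R11ΔS15, of which 1 (RPN7) was among the 32, and 173 in ΔS15, with a 20S median of -0.077 in R11ΔS15 and a 19S median of 0.028 in K11; it changed no other call of these genes. Same-numbered arrays of WT, R11 and K11 deviated together (correlations of 0.488 to 0.662), a hint from the data that the labels do not carry, and the block called 0 genes in R11 and in K11; where R11ΔS15 or ΔS15 was involved the correlations were -0.054 to 0.21, so that the numbers do not pair all strains. Without both arrays with raised chromosome IX the 31-gene median was -0.009 in ΔS15 and 0.041 in R11ΔS15 against ΔS15, and with centred arrays it was -0.062 for the effect of R11 without against with serine 15. On the arrays with raised chromosome IX, 3 of the 6 genes were above all others with quantile normalization, while centring on the median gave 7 and on other chromosomes 9.

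Leaving out 1 array gave 0 to 128 genes past the test in R11ΔS15 and 0 to 38 in ΔS15, both highest without WT replicate 3, and 0 to 1 in R11, but 0 of the 32 genes each time. The 31-gene median ran from -0.009 to 0.067 in ΔS15, 0.011 to 0.043 in R11, -0.02 to 0.047 in R11ΔS15 against ΔS15, and -0.073 to 0.008 for the effect of R11. The 20S median ran from -0.077 to 0.061 in R11ΔS15 and the 19S median from -0.043 to 0.028 in K11. RPN4 ran from 0.134 to 0.29 in R11ΔS15 and from 0.004 (without ΔS15 replicate 1) to 0.325 in ΔS15, and in R11ΔS15 against ΔS15 it was -0.113 without ΔS15 replicate 2 and -0.03 without R11ΔS15 replicate 2. The causes were not tested beyond what each setting removes. The other 499 values of the summaries and 51 of RPN4 kept their direction and call or moved by less than the spread between replicates. The separate 19S and 20S medians and the centring on other chromosomes were chosen after seeing the data. A search of promoters for the Rpn4 motif was not run.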
